A study of Homo sapiens with 6 samples.

Results

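The MHC class I presentation genes examined here are the rows of the deposited expression table named HLA-B, HLA-C, HLA-E, HLA-F, B2M, TAP1, TAP2, ERAP1 and NLRC5, 9 of 58735 genes, picked by name, with earlier results of these data known. The RNA came from HaCaT, a human keratinocyte line that immortalised spontaneously, labelled wild type in both groups: 3 samples exposed to dacomitinib for 48 h, and 3 controls. Dacomitinib blocks kinases of the EGFR family irreversibly, and the study asked which cell pathways differ after it. Exposure began at 70% confluence, and the design text attaches 0.1% DMSO to the experimental group, while the sources used here give neither the drug's dose nor the controls' vehicle. Both groups are 1 line, and since no label names separate cultures, the p-values reflect variation among samples that may be purely technical. The 3 columns whose initial matches the control titles were taken as controls, and the other 3 columns, whose letter stands in no label, were assigned to dacomitinib by elimination. The direction of every difference below rests on that assignment.

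A class I molecule is a heavy chain, encoded by an HLA gene, held together with beta-2-microglobulin and a short peptide, and it shows samples of the cell's own proteins to cytotoxic T cells and natural killer cells. Peptides made by the proteasome are pumped into the endoplasmic reticulum by the TAP1 and TAP2 transporter, trimmed there by ERAP1, and loaded with the help of tapasin, calreticulin and PDIA3. In keratinocytes, as in most nucleated cells, these genes are transcribed at a basal level and raised by interferon-gamma. NLRC5 is the transactivator that drives them from a promoter module bound by RFX, CREB/ATF and NF-Y factors.

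Promoter sequences are shown because these genes are known to share control elements, and because the heavy chains resemble each other there. RefSeq promoter windows of GRCh38.p14, from 250 bases before to 50 bases after the start site, were found for 7 of the 9 genes, and 6 are printed. TAP1 and ERAP1 had 2 windows listed each, and only the window nearest the gene's listed 5′ end was used. HLA-E and NLRC5 had no entry. Each runs 5′ to 3′ on the gene's strand, and capitals mark matches, on either strand, to the core of an interferon-stimulated response element (AANNGAAA), the full element (ISRE, the core with GA before it), a CRE-like element (TGACG), the binding letters of NF-Y (CCAAT), or an NF-kB-like element, read as GGGGATTCCC in HLA-B and GGGACTTTCC in TAP1. The motifs were chosen after the sequences had been seen. The ISRE core lies inside the ISRE, so these matches overlap.
B2M (chr15:44711267-44711566, plus strand): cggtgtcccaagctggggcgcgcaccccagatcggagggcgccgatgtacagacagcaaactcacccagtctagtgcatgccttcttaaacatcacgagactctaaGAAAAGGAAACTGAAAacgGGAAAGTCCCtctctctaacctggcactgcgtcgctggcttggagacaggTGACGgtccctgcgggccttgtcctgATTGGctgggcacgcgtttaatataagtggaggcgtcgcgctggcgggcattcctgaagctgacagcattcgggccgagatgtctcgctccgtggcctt
HLA-B (chr6:31357130-31357429, minus strand): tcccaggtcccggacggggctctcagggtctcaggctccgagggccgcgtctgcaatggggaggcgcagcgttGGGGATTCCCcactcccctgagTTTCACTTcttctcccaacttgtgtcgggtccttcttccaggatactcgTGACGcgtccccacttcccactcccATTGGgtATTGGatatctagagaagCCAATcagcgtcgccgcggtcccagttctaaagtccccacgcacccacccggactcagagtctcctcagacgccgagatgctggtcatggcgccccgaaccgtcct
HLA-C (chr6:31272043-31272342, minus strand): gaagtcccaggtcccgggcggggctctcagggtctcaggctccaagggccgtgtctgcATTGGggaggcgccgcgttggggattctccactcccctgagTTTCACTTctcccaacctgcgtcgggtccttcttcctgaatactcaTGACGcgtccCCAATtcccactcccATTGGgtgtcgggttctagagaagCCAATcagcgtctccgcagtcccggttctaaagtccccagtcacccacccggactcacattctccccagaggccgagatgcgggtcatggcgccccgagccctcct
HLA-F (chr6:29723184-29723483, plus strand): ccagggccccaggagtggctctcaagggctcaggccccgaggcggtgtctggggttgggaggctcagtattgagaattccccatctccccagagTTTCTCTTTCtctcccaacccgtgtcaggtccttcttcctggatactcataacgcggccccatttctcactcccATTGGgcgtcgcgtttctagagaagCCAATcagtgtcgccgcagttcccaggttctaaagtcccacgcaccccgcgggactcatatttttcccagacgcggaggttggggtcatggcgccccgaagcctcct
TAP1 (chr6:32853655-32853954, minus strand): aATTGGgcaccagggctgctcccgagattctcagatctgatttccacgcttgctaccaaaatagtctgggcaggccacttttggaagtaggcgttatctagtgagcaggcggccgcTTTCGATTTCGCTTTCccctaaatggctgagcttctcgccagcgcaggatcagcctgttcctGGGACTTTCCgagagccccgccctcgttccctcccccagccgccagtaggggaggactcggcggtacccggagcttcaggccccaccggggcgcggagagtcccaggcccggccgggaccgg
ERAP1 (chr5:96807896-96808195, minus strand): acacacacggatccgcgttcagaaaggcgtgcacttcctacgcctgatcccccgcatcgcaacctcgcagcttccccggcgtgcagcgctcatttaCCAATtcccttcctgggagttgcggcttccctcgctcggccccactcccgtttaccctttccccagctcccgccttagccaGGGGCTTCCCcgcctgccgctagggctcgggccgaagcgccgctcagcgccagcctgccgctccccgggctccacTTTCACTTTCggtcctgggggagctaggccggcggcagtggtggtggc

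**Figure D1:**
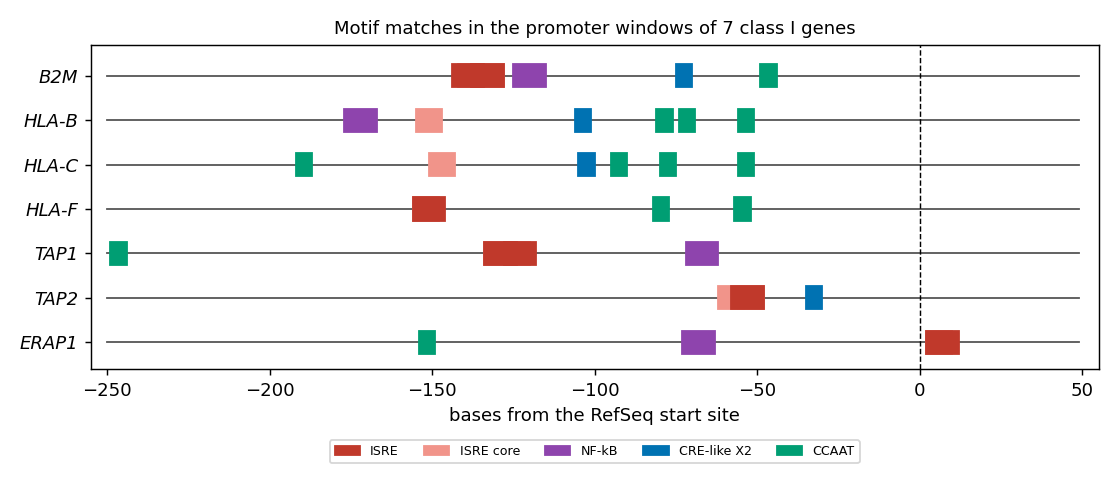
Positions of motif matches in the RefSeq promoter windows of 7 class I genes, in bases from the start site (dashed line at 0). Coloured boxes are matches on either strand; a full ISRE match stands in B2M, HLA-F, TAP1, TAP2 and ERAP1, and a core match alone in HLA-B and HLA-C.

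A full ISRE match was present in 5 of the 7 windows. Of 35116 RefSeq promoter windows of the same length, 3.57% held one, and 22.8% held the core. Counting bases before the start site as negative, B2M had 2 overlapping ISRE matches between -144 and -129, and TAP1 had 2 between -134 and -119. HLA-F had 1 from -156 to -147 and TAP2 1 from -58 to -49. In ERAP1 the match lay just downstream of the start site, at 2 to 11 bases. HLA-B and HLA-C held only the core. The CRE-like element was found in HLA-B, HLA-C, B2M and TAP2 (24.6% of all windows), the NF-kB-like element in HLA-B, B2M, TAP1 and ERAP1 (5.68% of all windows), and CCAAT in 6 of the 7, all but TAP2 (34.6% of all windows). These are letter matches in a reference genome and not measured binding sites.

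In 7 of the 9 genes the RNA level was called higher with dacomitinib, in 0 lower, and 2 were not called. With any 1 library left out the count was 4 or 5, and it was 4 without control replicate 1 or dacomitinib replicate 3. The test was limma on log2(FPKM + 1), FPKM being a fragment count divided by gene length and by a library size, over the 13748 genes with a mean of at least 1 FPKM, and a call is a Benjamini-Hochberg adjusted p of at most 0.05. All 9 genes passed that filter. Over all genes tested, 25.4% were called higher and 34.8% lower. The median log2 difference was 0.26 for the 9 genes and -0.06 for all genes tested. In either direction 60.2% of all genes tested were called. In order of their log2 difference the called genes were HLA-E, ERAP1, B2M, HLA-C, HLA-B, TAP2 and TAP1; differences between neighbours in this order were not tested.

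**Figure D2:**
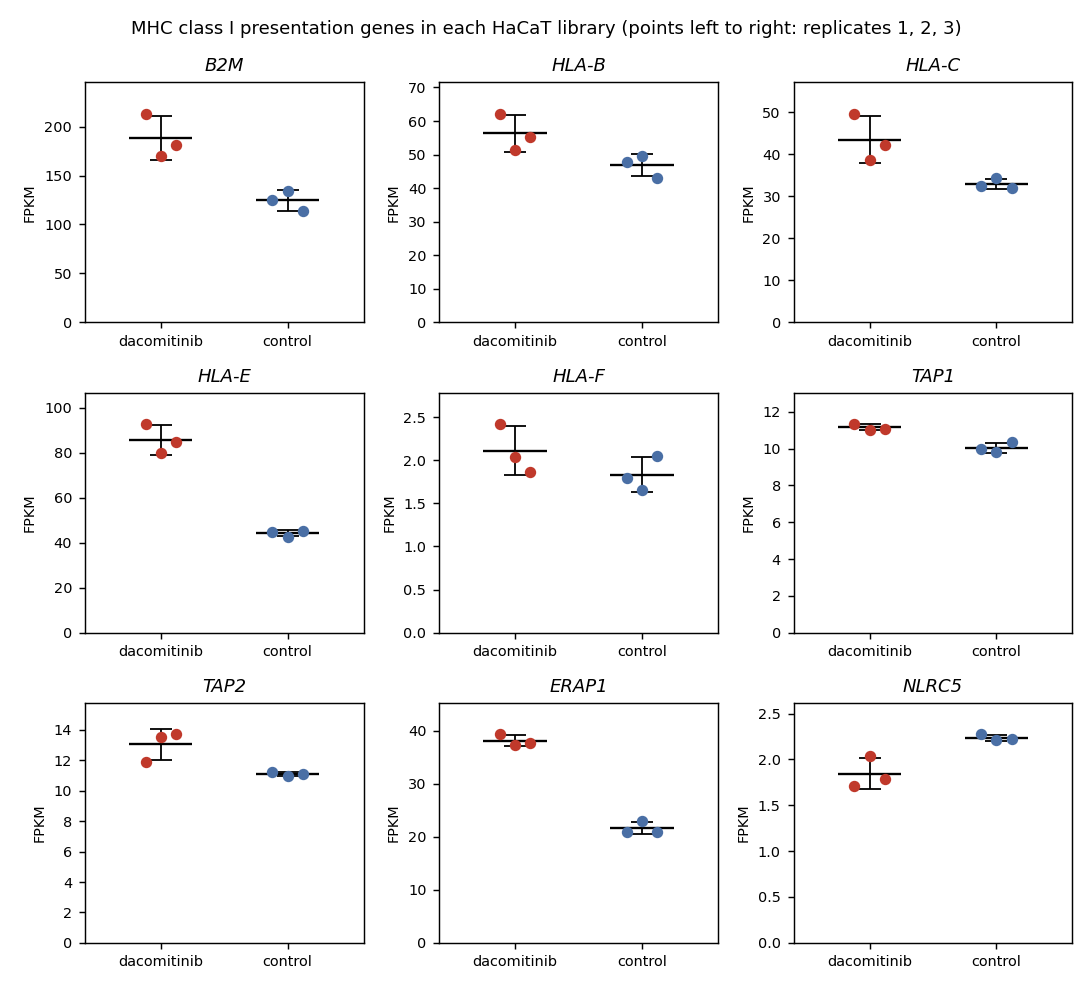
FPKM of each class I gene in the 3 dacomitinib and the 3 control libraries (points are libraries, the bar is the mean and the whiskers are SD, n = 3; every axis starts at 0). The groups do not overlap in 8 of the 9 genes: 7 are above the controls, NLRC5 is below, and HLA-F overlaps.

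The groups did not overlap in 8 of the 9 genes, against 67.1% of all genes tested. The dacomitinib libraries lay above every control in 7 (28.9% of all genes tested) and below every control in 1, NLRC5 (38.2% of all genes tested). Among the dacomitinib libraries replicate 1 had the highest value in 7 of the 9 genes and replicate 2 the lowest in 6.

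HLA-E encodes a non-classical heavy chain that presents leader peptides of other class I chains to NKG2A receptors on natural killer cells (ENSG00000204592, GRCh38 chr6:30489467-30494205). Its level was 92.8, 79.7 and 84.7 FPKM in dacomitinib libraries 1, 2 and 3, against 44.7, 42.7 and 45.3 FPKM in control libraries 1, 2 and 3. Each treated library was well above each control. The mean was 1.94 times the control mean, and the log2 difference was 0.94 (SE 0.06, limma adjusted p = 3.62e-05). Of all tested genes, 93.8% had a smaller log2 difference.

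B2M encodes the light chain that every class I heavy chain needs to reach the surface (ENSG00000166710, GRCh38 chr15:44711487-44718877). It was the most abundant of the 9 genes, with 213, 170 and 181 FPKM in the dacomitinib libraries against 125, 135 and 114 FPKM in the controls. The mean was 188 ± 22.5 FPKM with dacomitinib and 125 ± 10.4 FPKM in controls (SD, n = 3 each), and the log2 difference was 0.59 (SE 0.10, limma adjusted p = 0.00227). The spread among treated libraries was wide, but the lowest treated value stayed above the highest control.

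HLA-C encodes a classical heavy chain read by T cells and by killer immunoglobulin-like receptors (ENSG00000204525, GRCh38 chr6:31268749-31272130). It stood at 49.6, 38.7 and 42.1 FPKM in the dacomitinib libraries, against 32.5, 34.2 and 31.9 FPKM in the controls, a log2 difference of 0.39 (SE 0.09, limma adjusted p = 0.00915). HLA-B, the other classical heavy chain here (ENSG00000234745, GRCh38 chr6:31269491-31357188), had 62.2, 51.4 and 55.2 FPKM with dacomitinib, against 47.7, 49.6 and 43.2 FPKM in controls. Its log2 difference was 0.26 (SE 0.08, limma adjusted p = 0.0330). Dacomitinib replicate 2 of HLA-B was close to control replicate 2, and the call was lost without control replicate 1 or 3 or dacomitinib replicate 1 or 3 (adjusted p = 0.0690, 0.0944, 0.0728 and 0.0709), and without the expression filter (adjusted p = 0.0758), with 4.58e-06 to 0.0944 over its alternatives.

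HLA-F, a non-classical chain that can reach the surface without peptide (ENSG00000204642, GRCh38 chr6:29722775-29738528), was expressed at a low level. It had 2.42, 2.04 and 1.87 FPKM with dacomitinib, against 1.79, 1.66 and 2.05 FPKM in controls, and the groups overlapped. The log2 difference of 0.13 (SE 0.11, limma adjusted p = 0.341) was within the spread between replicates, at a depth of 464 fragments over the dacomitinib libraries and 352 over the controls. With TPM, a rescaling of FPKM to a fixed sum in each library, HLA-F was called higher (log2 difference 0.46, adjusted p = 0.0333, with 0.0333 to 0.852 over its alternatives). An antisense gene, HLA-F-AS1, shares 535 exon bases with it and had 200 fragments over the dacomitinib libraries and 76 over the controls. Whether counting used strand is not given, and without it their reads cannot be told apart.

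The proportions among the heavy chains were compared within each library, a measure added after seeing the data. HLA-E made up 45.8 ± 0.834% of the summed FPKM of the 4 heavy chains with dacomitinib and 35.2 ± 1.86% in controls (SD, n = 3 each), while HLA-B made up 30.0 ± 0.0738% with dacomitinib and 37.2 ± 1.76% in controls. For both chains the groups did not overlap, and the exact permutation test gave p = 0.1, the smallest that 3 against 3 libraries allow. The share of HLA-C was 23.1 ± 0.758% with dacomitinib and 26.1 ± 0.540% in controls. Such shares do not depend on the scaling between libraries. They do depend on gene length: the deposited lengths join the exons of all annotated transcripts, 3051 bases for HLA-B against 1547 for its principal GENCODE transcript, and 2975 against 2601 for HLA-E. By deposited FPKM, HLA-E stood above HLA-B in the dacomitinib libraries (85.7 ± 6.58 and 56.3 ± 5.47 FPKM), while in controls they did not differ beyond their spread (44.2 ± 1.38 and 46.8 ± 3.30 FPKM; SD, n = 3). Rescaled to the principal transcripts, HLA-B was the higher of the pair in each of the 6 libraries. HLA-E was then at 106, 91.2 and 96.9 and HLA-B at 123, 101 and 109 in dacomitinib libraries 1, 2 and 3, while in controls HLA-E averaged 50.6 ± 1.57 and HLA-B 92.3 ± 6.50 (SD, n = 3). The larger share of HLA-E with dacomitinib was found on both length scales (34.4 ± 0.727% with dacomitinib and 25.1 ± 1.53% in controls on the principal transcripts).

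The order of the deposited levels in dacomitinib libraries was B2M, HLA-E, HLA-B, HLA-C, ERAP1, TAP2, TAP1, HLA-F and NLRC5. The ranges of neighbours overlapped only between HLA-C and ERAP1 and between HLA-F and NLRC5. In controls HLA-B and HLA-E came next after B2M with overlapping ranges, and NLRC5 was above HLA-F. The length of B2M is the most inflated of the 9, at 6079 listed bases against 1705 for the longest of its 3 principal transcripts, so its FPKM understates it relative to the others. On the principal transcript it stood at 670 ± 80.2 with dacomitinib and 444 ± 37.2 in controls (SD, n = 3 each).

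ERAP1, the aminopeptidase that trims peptides to the length class I molecules hold (ENSG00000164307, GRCh38 chr5:96760810-96808100), had 39.4, 37.3 and 37.8 FPKM in dacomitinib libraries against 21.0, 23.0 and 21.0 FPKM in controls. The values were tight within each group and far apart between them, with a mean ratio of 1.76 and a log2 difference of 0.79 (SE 0.05, limma adjusted p = 3.01e-05). ERAP1 shares 299 exon bases with CAST on the other strand, which had 22346 fragments over the dacomitinib libraries and 18289 over the controls.

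TAP1 and TAP2 form the transporter that carries cytosolic peptides into the endoplasmic reticulum. TAP1 (ENSG00000168394, GRCh38 chr6:32845209-32853978) had 11.3, 11.0 and 11.1 FPKM with dacomitinib, against 9.97, 9.80 and 10.3 FPKM in controls, a log2 difference of 0.14 (SE 0.04, limma adjusted p = 0.0315). TAP2 (ENSG00000204267, GRCh38 chr6:32821833-32838780) had 11.9, 13.5 and 13.7 FPKM with dacomitinib, against 11.2, 10.9 and 11.1 FPKM in controls, a log2 difference of 0.21 (SE 0.06, limma adjusted p = 0.0222). The groups did not overlap in either gene, but both differences were small. The TAP1 call was lost when any library except control replicate 3 was left out (adjusted p = 0.0606 to 0.0954) and when replicate number was added as a block (adjusted p = 0.0691), with 0.000470 to 0.0954 over its alternatives. The TAP2 call was lost when any library except dacomitinib replicate 1 was left out (adjusted p = 0.0527 to 0.0749, with 7.17e-05 to 0.0749 over its alternatives). An annotated gene, AL669918.1, shares 2064 of the 6390 exon bases of TAP2 on the same strand and is listed at 0 in all 6 libraries; how reads in the shared exons were assigned is not given. TAP1 shares 456 exon bases with the antisense gene PSMB8-AS1, which had 4.29, 3.86 and 3.74 FPKM with dacomitinib against 1.85, 2.06 and 2.02 FPKM in controls.

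NLRC5, the class I transactivator (ENSG00000140853, GRCh38 chr16:56989485-57083531), was not called. It had 1.71, 2.03 and 1.79 FPKM with dacomitinib, against 2.28, 2.21 and 2.22 FPKM in controls, so every treated value was below every control. The log2 difference was -0.19 (SE 0.09, limma adjusted p = 0.114). Its direction depended on the scaling between libraries: it was 0.03 with TPM (adjusted p = 0.852) and -0.28 with quantile normalization, where it was called lower (adjusted p = 0.0295, with 0.0295 to 0.852 over its alternatives). The depth was 1159 fragments over the dacomitinib libraries and 1227 over the controls. NLRC5 was called higher under none of the alternatives run.

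**Figure D3:**
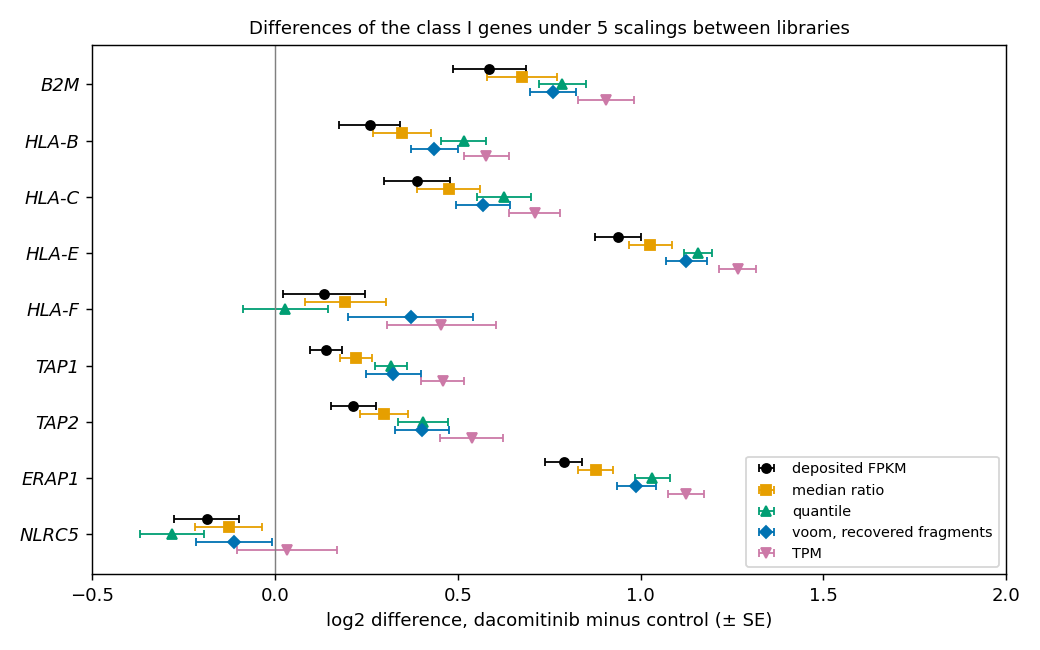
Log2 difference of each class I gene, dacomitinib minus control, with its SE, under 5 scalings between libraries; the vertical line is 0. HLA-E, ERAP1, B2M and HLA-C are above 0 under all 5, and NLRC5 is at -0.19 with the deposited scaling and 0.03 with TPM.

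The scaling between libraries sets the size of these differences. The library size implied by the deposited FPKM was 1.07 ± 0.0244 times the library's own fragment sum with dacomitinib and 0.952 ± 0.00449 times in controls (SD, n = 3 each). With TPM the median of all tested genes moved by 0.29 on the log2 scale, to 0.23, and that of the 9 genes was 0.58. With TPM 8 of the 9 genes were called higher, where 42.0% of all genes tested were called higher, 19.8% lower and 61.8% in either direction. HLA-C, HLA-E, B2M and ERAP1 were called higher in all 15 alternatives, with log2 differences of 0.29 to 0.71, 0.88 to 1.27, 0.49 to 0.91 and 0.77 to 1.12. Without the deposited scaling, the 9 genes had 109095 fragments over the dacomitinib libraries and 63873 over the controls, and their mean share of a library's fragments was 1.68 times as large with dacomitinib. B2M alone held 57965 of the former fragments and 33594 of the latter, so this pooled share weighs B2M most and is not a typical change of the 9 genes.

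Ratios to B2M were taken within each library on FPKM + 1, so scaling between libraries enters them only through the added 1. With 0.1 added instead, the difference was -0.86 for NLRC5 and -0.40 for HLA-F, and no other scaling was run for the ratios. HLA-E was higher relative to B2M with dacomitinib, at a mean log2 ratio of -1.12 ± 0.06 with dacomitinib and -1.47 ± 0.16 in controls (SD, n = 3 each), a difference of 0.35. HLA-B, HLA-C, HLA-F, TAP1, TAP2 and NLRC5 were lower relative to B2M, with differences of -0.33, -0.20, -0.45, -0.45, -0.37 and -0.77. For all of these the groups did not overlap and the 2-sided exact permutation test gave p = 0.1 (adjusted over the 8 ratios, 0.114), the smallest p that this test allows with 3 against 3 libraries. For ERAP1 the difference was 0.20 and the groups overlapped (exact permutation p = 0.2). The mean ratio was thus higher with dacomitinib for HLA-E and ERAP1 and lower for the other 6 genes.

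**Figure D4:**
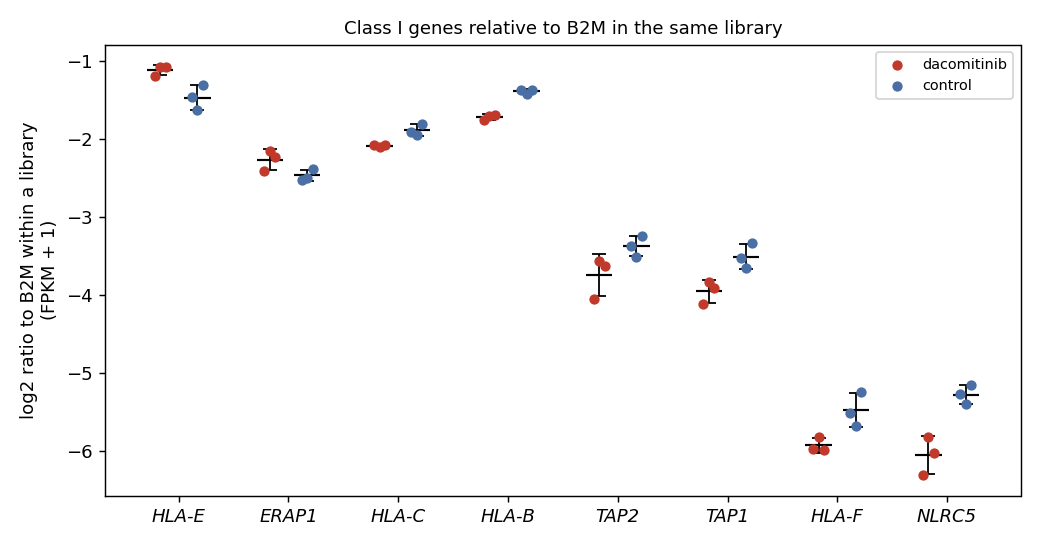
Log2 ratio of each class I gene to B2M in the same library, on FPKM + 1, for dacomitinib (left of each pair) and control libraries; points are libraries, bars means and whiskers SD (n = 3). HLA-E is higher with dacomitinib, at -1.12 against -1.47, and NLRC5 lower, at -6.05 against -5.27.

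The rest of the pathway was divided. Over 8 lists of 70 genes, 60 passed the expression filter, of which 23 were called higher, 19 lower and 18 not called, beside the 25.4% and 34.8% over all genes. With TPM the split was 35 higher and 11 lower, beside 42.0% and 19.8% over all genes. The same shares stand beside the counts of each list below. The median log2 difference of the 60 genes was 0.06, and 0.36 with TPM, beside 0.23 for all genes tested.

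**Figure D5:**
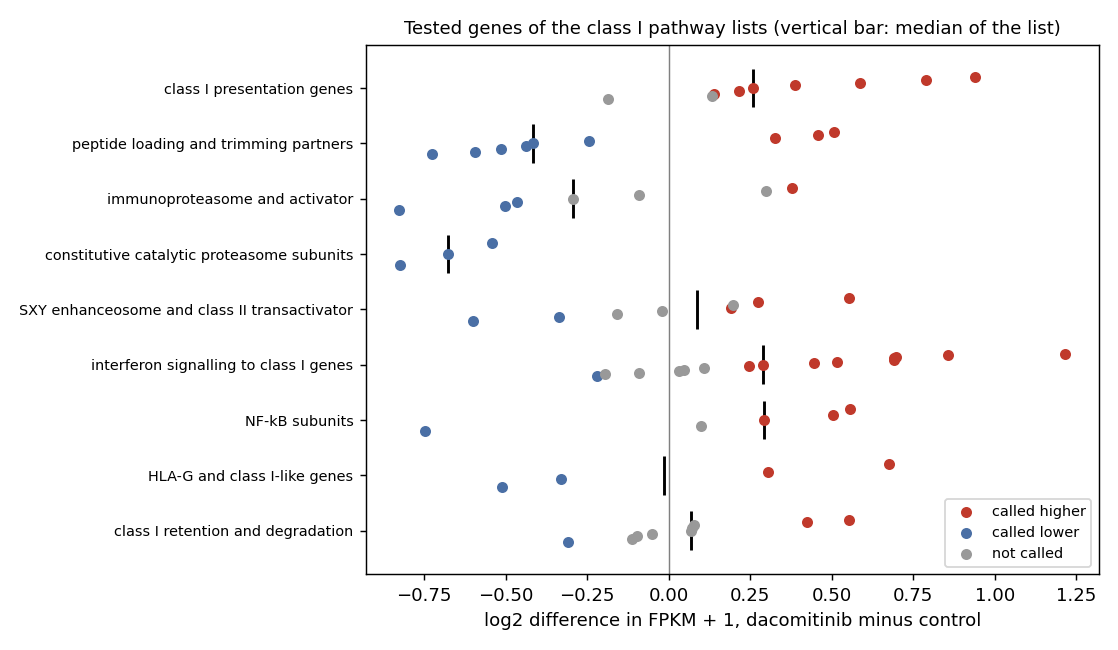
Log2 difference in FPKM + 1, dacomitinib minus control, of each tested gene of the class I lists; points are genes, colours the limma call, and the vertical bar the median of the list. The class I presentation genes have a median of 0.26, the loading partners -0.42 and the constitutive catalytic proteasome subunits -0.68.

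Among 9 loading and trimming partners, 3 rose and 6 fell (median -0.42). Those that rose were TAPBP, TAPBPL and ERAP2. TAPBP encodes tapasin, which bridges TAP and the heavy chain, and had 63.0, 56.4 and 58.1 FPKM with dacomitinib against 43.0, 41.5 and 39.6 FPKM in controls. TAPBPL encodes a tapasin-related peptide editor (log2 difference 0.46), and ERAP2 a second trimming aminopeptidase (0.33). Those that fell with the largest changes were general chaperones and the translocon: CALR, which encodes calreticulin, had 93.2, 94.0 and 96.8 FPKM with dacomitinib against 155, 150 and 166 FPKM in controls. SEC61A1, the pore of the translocon, fell by 0.59 on the log2 scale and PDIA3, a disulfide isomerase of the loading complex, by 0.51. With TPM the counts were 3 higher and 3 lower, CALR, SEC61A1 and PDIA3 remaining lower (-0.41, -0.28 and -0.20).

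Of 7 immunoproteasome and activator genes, 1 rose, 3 fell and 3 were not called (3 and 3 called with TPM). PSMB9, an interferon-inducible catalytic subunit whose start site lies 488 bases from that of TAP1 on the other strand, had 15.7, 13.0 and 15.8 FPKM with dacomitinib against 10.9, 11.3 and 11.4 FPKM in controls (log2 difference 0.38, limma adjusted p = 0.00607). The other inducible subunits were not called with the deposited scaling: PSMB8 had 20.6, 17.7 and 17.6 FPKM with dacomitinib against 20.7, 18.5 and 20.4 FPKM in controls, and PSMB10 averaged 10.7 ± 2.84 FPKM with dacomitinib and 8.42 ± 1.24 FPKM in controls (SD, n = 3 each). With TPM both were called higher, by a log2 difference of 0.22 for PSMB8 (limma adjusted p = 0.0309), opposite in sign to the -0.09 of the deposited scaling, and of 0.63 for PSMB10 (limma adjusted p = 0.0199). The genes that fell were POMP, the assembly factor of new proteasomes (-0.83), PSME3 (-0.50) and PSME2 (-0.46), which encode proteasome activator subunits. All 3 constitutive catalytic subunits fell, PSMB7 by 0.82, PSMB6 by 0.68 and PSMB5 by 0.54 on the log2 scale, and 2 of the 3 were called lower with TPM.

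Among 8 tested genes of the promoter-binding complex, 3 rose and 2 fell (5 and 1 with TPM). RFX5, the RFX subunit that contacts the class I and class II promoter module, had 25.4, 23.7 and 25.7 FPKM with dacomitinib against 15.3, 18.2 and 16.6 FPKM in controls (log2 difference 0.55, limma adjusted p = 0.000592). CREB1 and ATF1, which bind the CRE-like element, rose by 0.27 and 0.19. NFYA and NFYB, subunits of the CCAAT-binding factor, fell by 0.60 and 0.34 on the log2 scale; with TPM NFYB was not called (adjusted p = 0.356). CIITA, the class II transactivator, did not reach the expression limit; its fragments numbered 839 with dacomitinib and 454 in controls.

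Of 15 tested genes of interferon signalling, 9 rose and 1 fell, and another 4 of the list were below the expression limit (12 and 0 called with TPM). Over all genes tested, 25.4% were called higher and 34.8% lower, and with TPM 42.0% and 19.8%. IRF1, a transcription factor that binds the ISRE of class I genes, had 17.9, 13.7 and 14.3 FPKM with dacomitinib against 8.11, 7.66 and 8.10 FPKM in controls (log2 difference 0.86, limma adjusted p = 0.000379). STAT2, a subunit of the interferon-stimulated gene factor, had 29.2, 31.3 and 31.8 FPKM with dacomitinib against 12.7, 12.3 and 13.0 FPKM in controls. IRF7, an interferon regulatory factor, rose by 0.70.

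Of the 5 NF-kB subunits, 3 rose and 1 fell (4 and 1 with TPM). RELB rose by 0.55, NFKB2 by 0.50 and RELA by 0.29. NFKB1 fell by 0.75 on the log2 scale, with 11.3 ± 0.272 FPKM under dacomitinib and 19.6 ± 0.623 FPKM in controls (SD, n = 3 each). Among 4 tested class I-like genes, MR1, which presents microbial vitamin metabolites with B2M, rose by 0.67, and MICA, a ligand of the NKG2D receptor, by 0.30. HFE, a B2M-bound regulator of iron uptake, fell by 0.51 on the log2 scale and MICB, another NKG2D ligand, by 0.33; with TPM MICB was not called (adjusted p = 0.471). Of the other 4 of this list, HLA-G had 0 fragments in all 6 libraries. Of 9 tested genes linked to class I retention or degradation, TMEM127 and SUSD6, known to lower surface class I, rose by 0.55 and 0.42, MARCH9, a ubiquitin ligase, fell by 0.31 on the log2 scale, and 6 were not called (6 higher and 0 lower with TPM).

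The protein-coding genes whose profile over the 6 libraries was most like the mean standardized profile of the 9 genes were GRINA, ETS2, CAPS, AHNAK and CEACAM19, with Pearson r between 0.998 and 1.00. The profile separates the groups, and 1149 of 10613 other protein-coding genes had r of at least 0.95, so these 5 names rest on small differences among 6 libraries. ETS2, an ETS transcription factor, averaged 24.1 ± 2.82 FPKM with dacomitinib and 12.5 ± 0.104 FPKM in controls (SD, n = 3 each). CAPS averaged 1.80 FPKM with dacomitinib and 0.728 FPKM in controls, so it passed the expression filter only through the dacomitinib libraries.

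All 7 keratinocyte markers passed the expression filter, KRT5 averaging 358 ± 38.2 FPKM with dacomitinib and 452 ± 23.0 FPKM in controls, and TP63 37.4 ± 0.896 FPKM with dacomitinib and 40.1 ± 0.819 FPKM in controls (SD, n = 3 each). Of the 7, KRT17, DSG3 and CDH1 rose by 0.90, 0.52 and 0.45, KRT14 and KRT5 fell by 0.87 and 0.34 on the log2 scale, and 2 were not called; with TPM 4 were higher and 1, KRT14, lower. Of 14 leukocyte and antigen-presenting cell markers, 3 passed the expression filter and all 3 rose: CD74, HLA-DRA and HLA-DRB1, which belong to the class II pathway. The summed level of the 14 was 7.86 to 10.0 FPKM in dacomitinib libraries and 4.43 to 5.56 FPKM in controls. PTPRC, the pan-leukocyte marker, had 2 fragments over the dacomitinib libraries and 13 over the controls, and MS4A1 and CD1A had 0. The summed level of the 5 endothelial markers was 10.6 to 13.5 FPKM with dacomitinib and 1.81 to 2.22 FPKM in controls, CDH5 being the 1 that passed the filter and rose. Below the limit, VWF had 628 fragments over the dacomitinib libraries and 153 over the controls. PECAM1 had 311 and 164, with overlapping groups. KDR was at 0 fragments and TEK had 0 with dacomitinib and 2 in controls. The summed level of the 7 fibroblast markers was 2.28 to 3.62 FPKM with dacomitinib and 0.853 to 1.24 FPKM in controls. COL3A1 was called higher, and COL1A2 and PDGFRA were at 0. COL3A1 averaged 1.51 FPKM with dacomitinib and 0.705 FPKM in controls, so it passed the filter only through the dacomitinib libraries. DCN, a fibroblast proteoglycan below the limit, had 584 fragments over the dacomitinib libraries and 11 over the controls, and LUM had 43 and 1. COL1A1, also below the limit, went the other way with overlapping groups, at 107 fragments with dacomitinib and 143 in controls. VIM had 0 and 3. Of 5 melanocyte markers only MITF passed the filter, and it was not called (limma adjusted p = 0.307; 0.0278, and called higher, with voom on the recovered fragments). PMEL, below the limit, had 261 fragments over the dacomitinib libraries and 106 over the controls, and the sum of the 5 was 3.28 to 4.13 FPKM with dacomitinib and 2.41 to 2.77 FPKM in controls. The part of these marker levels in the class I result was not tested. In bulk RNA more cells of a kind and more RNA per cell cannot be told apart.

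The class I heavy chains resemble each other in sequence, and HLA alleles of the line can differ from the reference genome, which makes their values uncertain. The principal GENCODE transcripts of HLA-B and HLA-C were 93.4% identical over 1527 aligned bases, beside 29 gap bases. Those of HLA-E and HLA-B were 88.3% identical over 1532 aligned bases, beside 1084 gap bases. Of the 50-base windows of the principal transcripts, 2.54% of HLA-B, 6.79% of HLA-C, 5.13% of HLA-E and 1.70% of HLA-F occurred unchanged in a transcript of another gene, and 0% of B2M, ERAP1 and NLRC5. For TAP2 the share was 80.2%. The annotation also has a transcript of HLA-B that reaches into HLA-C, where they share 35 exon bases. The promoters of HLA-B and HLA-C were 90.9% identical over aligned bases, those of HLA-B and HLA-F 82.4%.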

How the data were processed

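RNA of 3 dacomitinib and 3 control HaCaT samples was sequenced from NEBNext Ultra libraries, per the labels. The deposited table gives FPKM, scaled by the authors to gene length and a library size, for 58735 genes; the authors' listed lengths equal the joined GENCODE 29 exons of the 9 genes. GRCh38 is the build and CASAVA, fastp, HISAT2, DESeq2 1.20.0 and featureCounts are the tools named, per the submitters' processing notes, which give them no roles. Multiplied by length, 100% of the values gave whole fragments within 0.01, summing to 14960650 to 16179273 per library.

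log2(FPKM + 1), which understates the change of weakly expressed genes, was tested with limma 3.58.1 and its trend option (R 4.3.3) where mean FPKM reached 1, with Benjamini-Hochberg adjustment over 13748 genes. The procedure was tested on simulated data in which few genes changed, unlike these data. The simulation held no shift in scaling between the groups, so it cannot speak to calls under such a shift. Ratios to B2M and promoter motifs were computed in Python 3.11.15. The members and lists were chosen with earlier results of these data known, and the motifs, the shares among heavy chains and the length rescaling after seeing the data. Named are the 9 genes, the 3 strongest called rises and falls of each list, TAPBP, CALR, PSMB8, PSMB9, PSMB10, IRF1, RFX5 and CIITA, and the 5 most similar genes. Alternatives were another pseudocount, 2 filters, other scalings, voom, a replicate block and leaving out each library. Some genes are not reported here. 0 sample columns were left unmapped.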

Additional observations from a re-analysis of the deposited data

How the results depend on the processing

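The 7 genes called higher became 4 to 5 when 1 library was left out, 4 without control replicate 1 or dacomitinib replicate 3, and 0 were then called lower. HLA-B, TAP1 and TAP2 account for the lost calls, and HLA-C, HLA-E, B2M and ERAP1 kept theirs in all 15 alternatives. With quantile normalization 1 gene, NLRC5, was called lower, against 0 as reported. With TPM the NLRC5 log2 difference was 0.032, opposite in sign to the reported -0.19. Over all genes, higher calls, 3493 as reported, were 5779 with TPM and 1946 where the mean FPKM had to reach 5, a filter that leaves fewer genes to test. Lower calls, 4778 as reported, came to 2721 with TPM. In the other lists, 35 were higher and 11 lower with TPM, against 23 and 19 as reported. When 1 library was left out, the counts over all genes were 3036 to 3223 higher and 4283 to 4647 lower, and in the other lists 21 to 23 higher and 18 to 20 lower. No label ties the replicate numbers to shared cultures. The correlation of deviations was -0.02 to 0.04 between same-numbered libraries and -0.08 to 0.05 between differently numbered ones. It shows no pairing, but with 3 libraries per group it cannot exclude it. With the replicate block 6 genes were called higher, TAP1 being the gene lost. All 8 ratios to B2M kept their sign with a pseudocount of 0.1 and without each library. HLA-F and NLRC5 had the fewest fragments, which limits what can be seen in them.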
